A study of Mus musculus with 24 samples.

Results

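The pituitaries of KO-labelled and wild-type mice were compared by bulk RNA sequencing in 6 of the 24 libraries of the series, 3 per genotype, chosen by their tissue and genotype labels. The remaining libraries are of ovary, uterus and hypothalamus. Both groups were C57BL6 females aged 8 to 10 weeks, virgin before a timed natural mating in which each male was placed with 2 females, and killed at 2.5 days post coitus. One group is labelled Wildtype and the other Kdm4a knockout. The labels give no allele, and do not say whether a library pools several glands. Whole glands were frozen, so all lobes and cell types contribute. The comparison asks which pituitary transcripts differ between the genotypes in early pregnancy.

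The pituitary joins an anterior lobe of hormone-secreting cells to an intermediate lobe of melanotropes and a posterior lobe of glia and nerve endings from the hypothalamus. Lactotropes make prolactin, somatotropes growth hormone, corticotropes and melanotropes the precursor POMC, thyrotropes thyrotropin, and gonadotropes LH and FSH. Releasing hormones reach them through a portal bed of fenestrated capillaries. In the mouse, mating starts a series of prolactin surges that maintain the corpora lutea of early pregnancy. Kdm4a is an enzyme that takes methyl groups off histone H3.

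Levels are given as CPM, that is counts over a common library total after TMM scaling, for 1 gene across libraries. Values of wild-type libraries 1, 2 and 3 stand before those of KO-labelled libraries 1, 2 and 3. Kdm4a itself (chromosome 4, 118136957 to 118180043, mm10) had 624, 794 and 598 reads against 843, 599 and 657, or 36.4, 38.5 and 32.5 against 43.4, 30.1 and 33.0 CPM. The groups overlapped (log2 fold change -0.013, SE 0.17, edgeR adjusted p = 0.984). A gene total cannot show a partial deletion, so the libraries are called by their label. Of its relatives, Kdm4b lay at 18.3 to 22.4 against 19.8 to 24.4 CPM and Kdm4c at 36.8 to 37.4 against 33.5 to 38.8 CPM, both overlapping, and Kdm4d had too few counts for the test.

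The libraries held 16966571 to 23865382 counts, so that 1 count was worth 0.0419 to 0.0589 CPM. KO-labelled library 1 stood apart, with a first principal component score of 45.7 where the other 5 lay between -26.9 and 7.87 (32.1% of the variance). Departures from the mean profile ranked with GC content at -0.452 to -0.220 in the wild-type libraries and at 0.127 to 0.497 in the KO-labelled ones. With transcript length they ranked at -0.516 in KO-labelled library 1 and at -0.0452 to 0.269 in the others. Wild-type libraries 1 and 2 carried neutrophil and marrow transcripts that the others held at low levels. Values with 1 of these libraries left out stand beside the results they move most.

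Prolactin and growth hormone dominated the libraries. Their genes, Prl and Gh, together took 44.1%, 34.7% and 42.1% of the counts in wild-type libraries 1 to 3 and 54.8%, 45.4% and 45.6% in KO-labelled libraries 1 to 3. Every KO-labelled library lay above every wild-type one, the nearest pair being 44.1% and 45.4%. The means were 40.3% ± 4.97 and 48.6% ± 5.36 (SD, n = 3), a difference of 8.28 percentage points (exact permutation test over libraries, two-sided, p = 0.1, the smallest that 3 against 3 can give). For the share of counts taken by Prl and Gh together, the difference was 5.18 points without KO-labelled library 1 and 5.47 points without wild-type library 2. In whole glands, fewer cells of a type and less RNA per cell cannot be told apart.

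Each hormone was also taken alone. Prl took 31.2%, 22.5% and 32.6% of wild-type counts and 38.1%, 32.0% and 32.3% of KO-labelled counts (difference 5.36 points, exact permutation test, two-sided, p = 0.3). These shares overlapped, with wild-type library 2 low and KO-labelled library 1 high, and the difference was 2.24 points without the former and 3.37 points without the latter. Gh took 12.9%, 12.2% and 9.57% against 16.7%, 13.4% and 13.3% (difference 2.92 points, exact permutation test, two-sided, p = 0.1), with no overlap. That difference was 1.82 points without KO-labelled library 1 and 1.93 points without wild-type library 3.

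**Figure D1:**
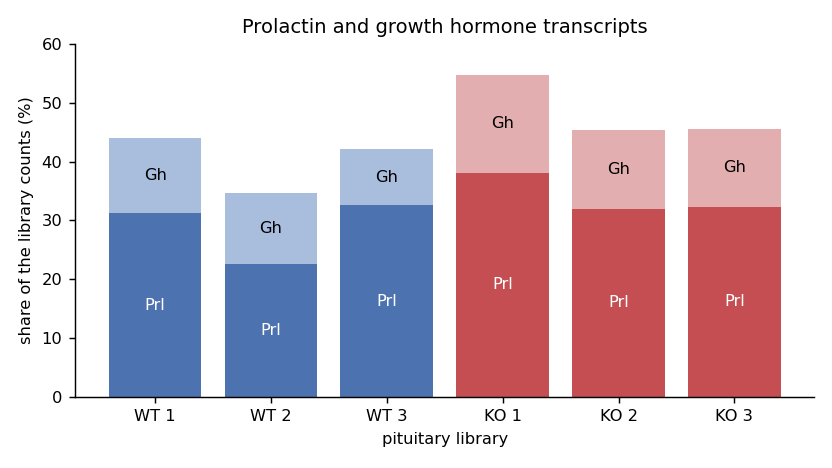
Share of each pituitary library's counts (y axis, percent) taken by Prl and Gh, stacked, in 3 wild-type and 3 KO-labelled libraries. The wild-type bars reach 34.7% to 44.1% and the KO-labelled bars 45.4% to 54.8%.

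With this share unequal, the scale of all other genes depends on how the 2 hormones are handled. TMM scaling placed the median log2 fold change (KO-labelled over wild type) of the 14163 genes tested at -0.0012. Dividing by library totals that include Prl and Gh moved that median to -0.22, with 73.9% of genes negative, and then 4 genes passed FDR 0.05, 0 higher and 4 lower. These were Rps4l, Chil3, Ccl28 and Cga, at edgeR adjusted p of 0.00106, 0.0226, 0.0359 and 0.0359. Leaving both hormones out of the totals, with or without TMM, gave the same 6 genes as the main test.

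Under TMM scaling those 6 of 14163 genes passed FDR 0.05 in edgeR's quasi-likelihood test (0.0424%). In KO-labelled libraries 2 rose (0.0141%), the vascular gene Plvap and the protease gene Capn8. The other 4 fell (0.0282%), namely the pseudogene Rps4l, the myeloid gene Chil3, the sodium channel gene Scn7a and the chemokine gene Ccl28. At an unadjusted p under 0.05 there were 889 genes higher (6.28%) and 860 lower (6.07%), together 12.3%. The groups did not overlap for 2772 genes (19.6%), 1418 of them higher (10.0%) and 1354 lower (9.56%) in every KO-labelled library.

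Plvap encodes a protein of the diaphragms that span the pores of fenestrated capillaries (chromosome 8, 71497765 to 71511752). Its levels were 51.6, 70.4 and 47.4 against 143, 120 and 107 CPM. The lowest KO-labelled library lay well above the highest wild-type one (log2 fold change 1.13, SE 0.17, edgeR adjusted p = 0.0386).

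Capn8, a calcium-dependent protease known from the stomach, lies on chromosome 1, 182565007 to 182632352. Its levels were 1.40, 1.94 and 2.56 against 18.5, 9.24 and 6.68 CPM. The groups were far apart, although the KO-labelled libraries differed among themselves (log2 fold change 2.54, SE 0.38, edgeR adjusted p = 0.0419). The log2 fold change was 2.02 without KO-labelled library 1, its lowest value with any 1 library left out.

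Rps4l is annotated as a transcribed processed pseudogene related to a ribosomal protein gene (chromosome 6, 148354656 to 148355598). How the counting treated reads shared with near-identical copies is not stated, so its level is uncertain. It measured 11.6, 21.8 and 17.3 against 0.720, 1.46 and 1.31 CPM. This gene had the smallest p of all genes tested (log2 fold change -3.86, SE 0.32, edgeR adjusted p = 9.45e-05).

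Scn7a encodes an atypical sodium channel that takes part in sodium sensing by glia (chromosome 2, 66673425 to 66784914). It measured 46.6, 52.5 and 67.9 against 16.8, 26.5 and 22.4 CPM (log2 fold change -1.34, SE 0.20, edgeR adjusted p = 0.0291). Ccl28 (chromosome 13, 119623819 to 119654359), a chemokine of mucosal epithelia, measured 7.23, 6.36 and 4.24 against 1.08, 1.41 and 1.41 CPM (log2 fold change -2.19, SE 0.32, edgeR adjusted p = 0.0291). In both genes every KO-labelled library was below every wild-type one.

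Chil3, a chitinase-like lectin of myeloid cells (chromosome 3, 106147554 to 106167564), had 59, 75 and 23 reads against 3, 1 and 1. This came to 3.44, 3.64 and 1.25 against 0.154, 0.0502 and 0.0503 CPM (log2 fold change -4.94, SE 0.67, edgeR adjusted p = 0.0222). All 3 KO-labelled libraries held almost none, and the size of the change rests on those few reads. Chil3 passed the filter on low counts through the wild-type libraries, where it is high. Like the neutrophil and marrow list to which it belongs, it was lower in wild-type library 3 than in the other wild-type libraries. Its call therefore does not by itself support a genotype difference.

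**Figure D2:**
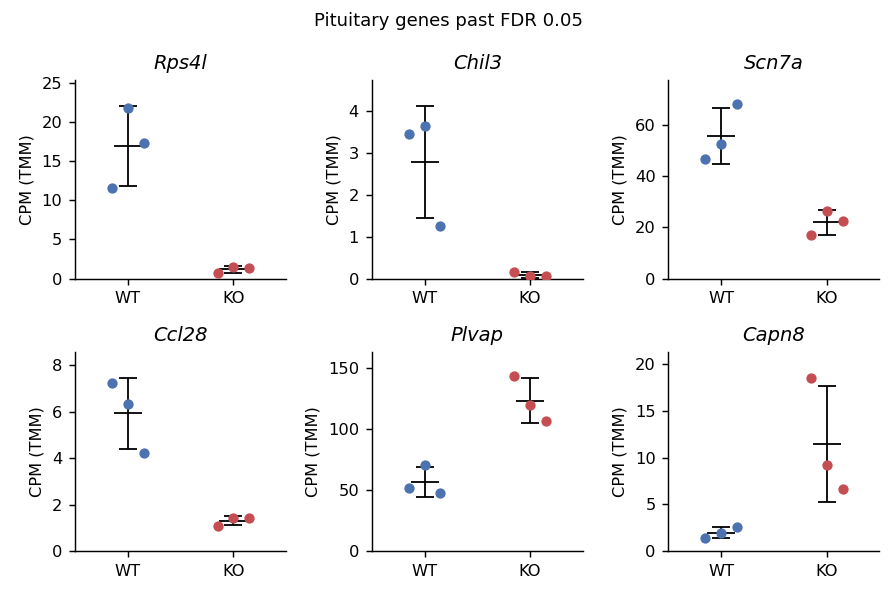
CPM (y axis, TMM-scaled) of the 6 genes past FDR 0.05 in 3 wild-type and 3 KO-labelled pituitary libraries, 1 point per library, with the mean and SD of 3 as bars. In all 6 panels the groups are apart, Plvap at 47.4 to 70.4 against 107 to 143 CPM and Rps4l at 11.6 to 21.8 against 0.720 to 1.46 CPM.

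The calls depended on single libraries. Without wild-type library 1, 2 or 3 there were 4, 1 and 10 genes past the threshold, and without KO-labelled library 1, 2 or 3 there were 8, 4 and 2. Rps4l passed in all 6 of these fits, Chil3 and Scn7a in 3, Capn8 in 2, Ccl28 in 1 and Plvap in 0, with edgeR adjusted p for Plvap between 0.0523 and 0.202. When trends with GC and length were removed library by library, 4 genes passed (0.0282%), namely Rps4l, Chil3, Scn7a and the ribosomal RNA gene Rn45s. Plvap (0.80), Capn8 (2.50) and Ccl28 (-1.97) then had edgeR adjusted p of 0.0753, 0.0507 and 0.0507 with the direction of their log2 fold change unchanged. The authors' deposited table called 39 genes at the same threshold, 23 higher and 16 lower, and 5 of the 6 were among them.

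Upstream sequence is shown for the gene with the largest fold change in each direction among the 4 of the 6 with an entry in RefSeq's promoter windows (GRCm38.p6). Each run is the 250 bases before the annotated start, on the gene's strand, with CG dinucleotides, where mammalian DNA is mostly methylated, in capitals. The Chil3 window is chr3:106167565-106167814 on the minus strand and the Capn8 window chr1:182564757-182565006 on the plus strand.
Chil3: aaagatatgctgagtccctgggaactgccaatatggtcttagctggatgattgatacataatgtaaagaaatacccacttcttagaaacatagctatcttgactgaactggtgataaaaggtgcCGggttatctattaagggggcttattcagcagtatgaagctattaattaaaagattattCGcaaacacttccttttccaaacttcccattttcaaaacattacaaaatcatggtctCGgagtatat
Capn8: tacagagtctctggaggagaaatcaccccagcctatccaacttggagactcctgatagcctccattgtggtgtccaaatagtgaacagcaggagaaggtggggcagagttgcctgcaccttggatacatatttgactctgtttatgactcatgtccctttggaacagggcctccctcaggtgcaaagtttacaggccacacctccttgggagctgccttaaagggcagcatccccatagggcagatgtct
The Chil3 window held 3 CG dinucleotides and that of Capn8 held 0, while those of Scn7a and Ccl28 held 3 and 4. Over the 32851 windows of the same length read here the median was 6, and 71.0% held at least 3. The counts describe the sequence alone.

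Below the threshold, the 18 genes next in order of p had edgeR adjusted p from 0.0828 to 0.288, so none passed. Genes of secretion and neuropeptide signalling were among them. Vgf, whose granule protein is cleaved into bioactive peptides, measured 12.1, 9.99 and 13.5 against 22.4, 23.4 and 26.7 CPM (log2 fold change 1.03, SE 0.19, edgeR adjusted p = 0.11). Penk, the proenkephalin gene, measured 13.6, 11.9 and 19.7 against 35.6, 32.1 and 22.7 CPM. Oprk1, the kappa opioid receptor gene, lay the other way at 3.09, 4.56 and 3.10 against 1.44, 1.05 and 1.06 CPM. The groups did not overlap for any of the 3.

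A pair of calcium channel genes was higher in every KO-labelled library. Cacnb1, a channel subunit, measured 5.94, 5.39 and 5.38 against 11.6, 9.29 and 12.3 CPM. Dos, now named Cbarp and encoding a regulator of such channels, measured 125, 110 and 139 against 185, 236 and 274 CPM (log2 fold change 0.90, SE 0.16, edgeR adjusted p = 0.11). Dos passed in 1 of the 6 fits with 1 library left out, that without KO-labelled library 1 (edgeR adjusted p = 0.0154). Over these fits its edgeR adjusted p reached 0.475, and with GC and length trends removed it was 0.614.

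Matrix and adhesion genes lay on both sides. Lum, a collagen-binding proteoglycan of fibroblasts, measured 25.2, 22.8 and 28.5 against 13.1, 14.3 and 13.1 CPM (log2 fold change -0.92, SE 0.17, edgeR adjusted p = 0.148). Col25a1, a transmembrane collagen, measured 37.8, 48.3 and 48.2 against 18.6, 25.9 and 26.8 CPM. Both were lower in every KO-labelled library. Sdc3, a cell surface proteoglycan, measured 24.7, 31.0 and 20.7 against 46.9, 47.8 and 39.7 CPM. The adhesion adaptor Efs measured 7.11, 7.47 and 8.97 against 18.9, 16.02 and 14.1 CPM, and the cytoskeletal actin gene Actg1 111, 94.8 and 96.2 against 176, 165 and 150 CPM. These 3 were higher without overlap.

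Among nuclear proteins, Id3, which blocks DNA binding by helix-loop-helix factors, measured 7.69, 5.09 and 4.41 against 10.8, 13.4 and 14.5 CPM. Phf1, a partner of the Polycomb complex that methylates histone H3, measured 17.5, 14.3 and 17.4 against 32.6, 25.1 and 27.8 CPM. Both were higher in every KO-labelled library. Zfp951, a zinc finger gene, had 20, 100 and 51 reads against 0, 7 and 0. Fignl1, an ATPase of DNA repair by recombination, measured 7.93, 5.53 and 2.34 against 1.75, 1.10 and 1.01 CPM. These were lower without overlap, Fignl1 by a narrow gap beside wild-type library 3.

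The remaining genes of the 18 were Rn45s, Bpifa1, Mctp1 and Akr1cl. Rn45s, the ribosomal RNA precursor, measured 408, 297 and 358 against 637, 678 and 578 CPM, in libraries made by poly-A selection. Bpifa1, a secreted protein of airway epithelium, had 1, 1 and 5 reads against 192, 37 and 46. Its few wild-type reads make any fold change unstable. Mctp1, a membrane protein with calcium-binding C2 domains, lay at 12.1 to 14.6 against 4.48 to 8.13 CPM, and Akr1cl, of the aldo-keto reductase family, at 2.80 to 3.53 against 0.854 to 1.13 CPM.

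GC content differed between the directions. Of the 24 genes taken by p, the 13 higher ones had a median transcript GC content of 58.7% over the 12 with a value, and the 11 lower ones 41.9%, against 49.7% over all genes tested. At an unadjusted p under 0.05 the medians were 56.6% for higher and 42.8% for lower genes. With GC and length trends removed, all 24 kept the sign of their fold change, while Vgf went from 1.03 to 0.68, Dos from 0.90 to 0.56 and Plvap from 1.13 to 0.80 on the log2 scale. The part of GC content in the differences was not tested beyond this.

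**Figure D3:**
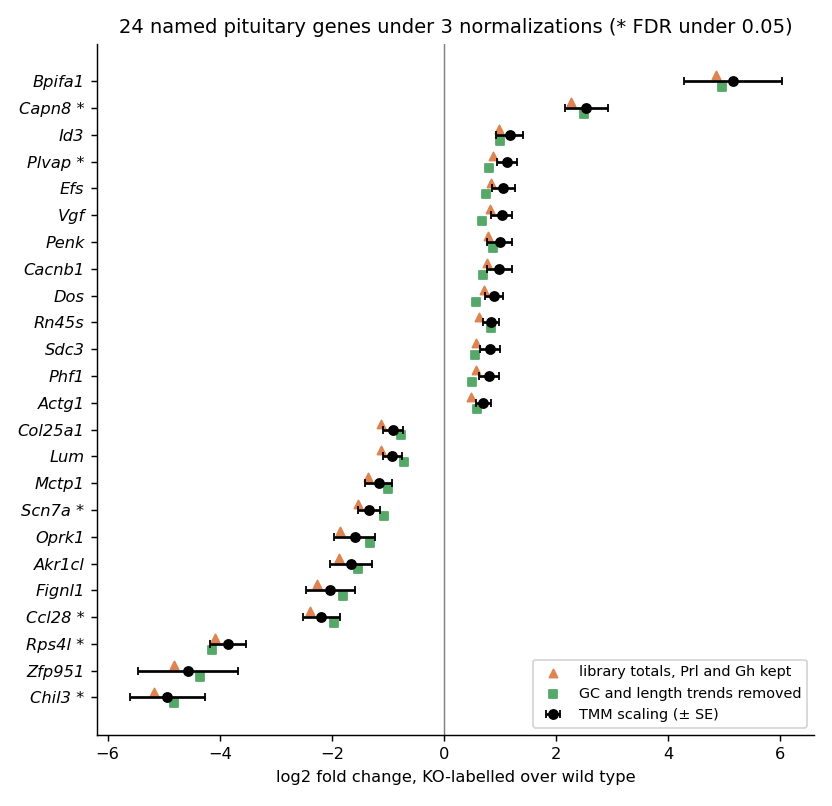
Log2 fold change, KO-labelled over wild type (x axis), of 24 genes taken by p (rows). Black points with bars are TMM-scaled estimates ± SE, orange triangles come from plain library totals with Prl and Gh kept, and green squares from fits with GC and length trends removed. Triangles lie to the left of the black points throughout, as the median of all genes does (-0.22), and no gene changes side.

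The other hormone genes of the anterior lobe gave a mixed picture, and none of the 7 subunit genes passed. Cga, the subunit that LH, FSH and thyrotropin share, measured 3061, 3119 and 3243 against 2517, 1931 and 2099 CPM. The groups were well apart (log2 fold change -0.53, SE 0.13, edgeR adjusted p = 0.289). In plain totals with Prl and Gh kept, where the median of all genes was -0.22, Cga passed (-0.75, edgeR adjusted p = 0.0359). It also passed without KO-labelled library 1 (-0.64, edgeR adjusted p = 0.0359), the only 1 of the 6 fits with 1 library left out. Over these fits its edgeR adjusted p reached 0.513. With GC and length trends removed Cga was at -0.46 (edgeR adjusted p = 0.14).

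Gh measured 127512, 101034 and 93096 against 204544, 135177 and 134804 CPM (log2 fold change 0.56, SE 0.18, edgeR adjusted p = 0.292). Prl measured 308360, 187057 and 316873 against 467890, 321757 and 327623 CPM (log2 fold change 0.46, SE 0.21, edgeR adjusted p = 0.399). On this scale neither gene's groups overlapped, Prl by a narrow gap, whereas the raw shares of Prl did overlap.

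The subunits that give each glycoprotein hormone its identity overlapped between genotypes. Lhb, of LH, measured 293, 210 and 192 against 340, 245 and 253 CPM, and Tshb, of thyrotropin, 323, 284 and 272 against 246, 215 and 282 CPM. Fshb, of FSH, varied most, at 168, 16.3 and 197 against 128, 237 and 255 CPM, wild-type library 2 being far below the rest. The fold change (log2 fold change 0.70, SE 0.97, edgeR adjusted p = 0.798) was 0.18 on the log2 scale without that library. Pomc, the precursor of ACTH and melanocyte-stimulating hormone, measured 5800, 7338 and 6077 against 7822, 6128 and 7714 CPM. Its log2 fold change of 0.17 was -0.062 in plain totals and -0.13 with GC and length trends removed.

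Crhbp, a secreted protein that binds corticotropin-releasing hormone, had the largest fold change among the corticotrope and melanotrope genes. It measured 69.1, 33.9 and 62.8 against 111, 331 and 267 CPM. Every KO-labelled library lay above every wild-type one, but library 1 was well below the other KO-labelled ones (log2 fold change 2.10, SE 0.49, edgeR adjusted p = 0.292). In the fit over all 24 libraries, which shares 1 estimate of spread between tissues, Crhbp passed in the pituitary, together with Rps4l, Plvap and S100a8. The other 11 tested genes of that list had log2 fold changes between -0.55 and 0.17, among them the CRH receptor Crhr1 at -0.11 and the vasopressin receptor Avpr1b at -0.27.

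**Figure D4:**
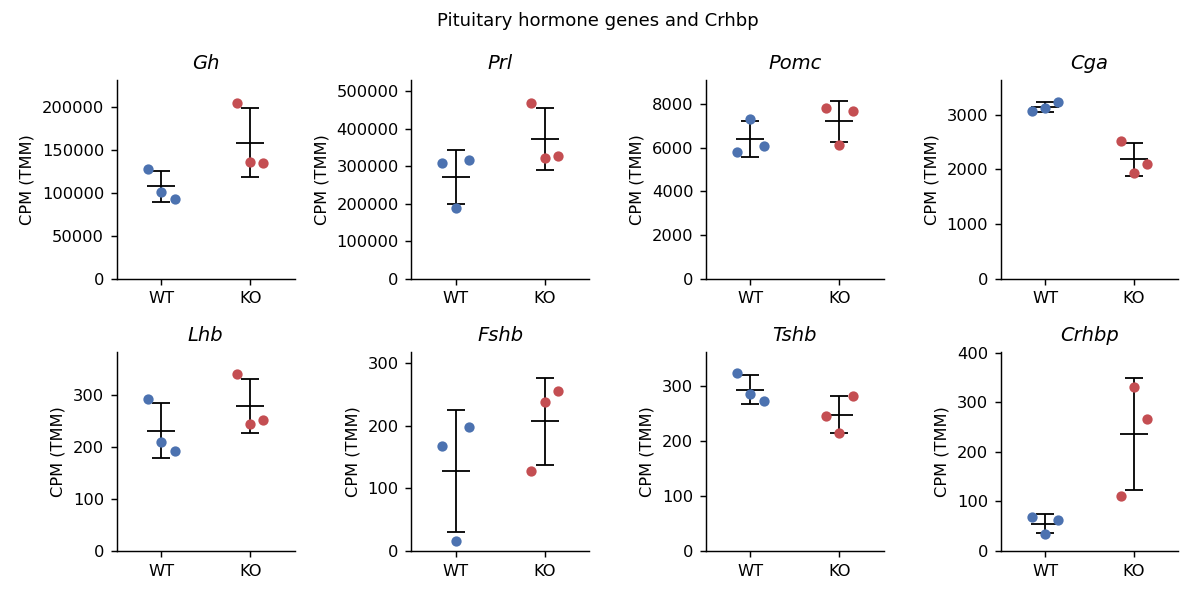
CPM (y axes, TMM-scaled) of the 7 anterior hormone subunit genes and Crhbp in 3 wild-type and 3 KO-labelled libraries, 1 point per library, with the mean and SD of 3 as bars. Cga (3061 to 3243 against 1931 to 2517 CPM) and Crhbp (33.9 to 69.1 against 111 to 331 CPM) separate, while Lhb, Tshb, Pomc and Fshb overlap.

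Of 24 transcription factors of pituitary lineages 21 were tested, 0 passed, and 4 were higher and 1 lower without overlap (all genes: 10.0% and 9.56%). Their median log2 fold change was -0.034, and ran from -0.12 without wild-type library 1 to 0.13 without wild-type library 3. Pitx1, a homeodomain factor of the whole anterior lobe, measured 36.9, 43.3 and 57.8 against 73.1, 107 and 68.0 CPM (log2 fold change 0.84, SE 0.20, edgeR adjusted p = 0.289). Gata2, a factor of thyrotropes and gonadotropes, measured 18.5, 16.9 and 22.03 against 30.8, 34.3 and 25.6 CPM. The retinoid receptor gene Rxrg and the homeodomain gene Lhx3 were the other members on the higher side, with log2 differences of 0.47 and 0.33. Foxl2, a forkhead factor of gonadotropes, was on the lower side at 23.3, 34.4 and 17.8 against 17.7, 15.4 and 13.1 CPM, its nearest libraries being almost equal. Pou1f1, which lactotropes, somatotropes and thyrotropes require, overlapped at 83.8, 69.3 and 107 against 98.6, 165 and 124 CPM. Tbx19 of corticotropes and Nr5a1 of gonadotropes had log2 fold changes of 0.056 and 0.11.

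Receptors for hypothalamic and steroid signals showed no common direction. Of 23 such genes 20 were tested, 10 positive and 10 negative, 0 passed, and 3 were higher and 1 lower without overlap, where 10.0% and 9.56% of all genes were. Gnrhr, the GnRH receptor of gonadotropes, measured 62.8, 40.1 and 35.5 against 12.0, 29.4 and 33.4 CPM. Its groups did not overlap, and KO-labelled library 1 held the lowest level. Adcyap1r1, the PACAP receptor, was on the higher side at 13.5, 10.3 and 11.3 against 20.5, 15.6 and 20.6 CPM (log2 fold change 0.69, SE 0.20, edgeR adjusted p = 0.289). Trhr, the thyrotropin-releasing hormone receptor, measured 14.2, 9.95 and 14.7 against 6.69, 10.6 and 8.74 CPM, and the progesterone receptor Pgr 28.8, 47.5 and 28.4 against 19.4, 20.5 and 31.1 CPM, both with overlap. The dopamine receptor Drd2, through which dopamine restrains prolactin, overlapped at 72.1, 73.7 and 72.8 against 96.1, 72.2 and 106 CPM, and the oestrogen receptor Esr1 at 208 to 247 against 187 to 256 CPM.

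The lists that mark single hormone cell types were read against the same background. Of 15 gonadotrope genes tested 1 was higher and 3 lower without overlap (all genes: 10.0% and 9.56%), the lower ones being Gnrhr, Foxl2 and Cga. Of 8 thyrotrope genes tested 6 were negative, with a median log2 fold change of -0.42 (-0.22 with GC and length trends removed, and -0.28 without either wild-type library 1 or KO-labelled library 1). Dio2, the deiodinase that activates thyroid hormone, was lower without overlap at 134, 151 and 137 against 63.4, 121 and 104 CPM. Of 18 lactotrope and somatotrope genes 12 were positive, 3 were higher and 2 lower without overlap. Igf1, a growth factor that growth hormone induces in liver, was on the lower side at 15.2, 16.4 and 16.3 against 8.90, 12.0 and 8.49 CPM, as was Socs2, a feedback inhibitor of growth hormone signalling, at 29.4, 28.9 and 30.9 against 24.6, 18.1 and 28.0 CPM. Gal, the galanin gene of lactotropes, overlapped at 13.4, 11.2 and 35.7 against 201, 45.7 and 26.5 CPM, KO-labelled library 1 being the highest. None of the genes in these lists passed.

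Vascular genes leaned upward beyond Plvap. Of 20 endothelial genes, all tested, 19 had positive log2 fold changes, 8 were higher without overlap and 1 lower, and 1 (Plvap) passed, against 10.0% higher without overlap over all genes. The list's median was 0.46, with 0.38 after GC and length trends were removed and 0.23 in plain totals with Prl and Gh kept, where the median of all genes was -0.22. Eng, a co-receptor for TGF-beta ligands, measured 13.5, 16.9 and 14.2 against 26.4, 25.5 and 23.6 CPM. Tie1, a receptor kinase of endothelium, measured 8.33, 9.41 and 7.40 against 19.7, 15.2 and 12.1 CPM, and the guidance receptor Robo4 2.91, 5.24 and 3.64 against 8.64, 8.03 and 6.89 CPM. None of these 3 overlapped, nor did Esam (0.73), Sox18 (1.09), Cldn5 (0.65) and the angiopoietin receptor Tek (0.45 on the log2 scale). The broader markers overlapped, with Pecam1 at 14.2 to 22.8 against 20.7 to 27.6 CPM and the VEGF receptor Kdr at 22.2 to 32.1 against 28.8 to 40.3 CPM. Esm1, a proteoglycan of endothelial tip cells, was the lower gene at 45.0, 57.2 and 63.6 against 33.0, 34.7 and 43.7 CPM. Summed over the list with Plvap included, the level was 254 to 331 CPM in wild-type and 374 to 415 CPM in KO-labelled libraries. Plvap alone measured 47.4 to 70.4 against 107 to 143 CPM, so the gap between the sums is in large part its own.

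Pericyte and fibroblast genes did not share that direction. Of 14 tested, 7 were positive and 7 negative, with 2 higher and 3 lower without overlap (all genes: 10.0% and 9.56%). Dcn, the proteoglycan decorin, was lower at 114, 120 and 121 against 67.6, 80.8 and 93.1 CPM, as was Lum, while the pericyte channel gene Kcnj8 was higher at 3.85, 4.22 and 4.13 against 9.16, 5.93 and 6.23 CPM. The collagen genes Col1a1, Col1a2 and Col3a1 overlapped.

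Genes of the intermediate and posterior lobes leaned downward. Of 15 tested, 14 were negative, 6 were lower without overlap and 1 (Scn7a) passed, where 9.56% of all genes were lower without overlap. The median log2 fold change was -0.55, with or without GC and length trends, and the summed level was 264 to 369 CPM in wild-type and 176 to 226 CPM in KO-labelled libraries. Besides Scn7a and Col25a1, the glial glutamate transporter Slc1a3 was lower at 26.1, 25.9 and 42.3 against 15.6, 20.04 and 21.6 CPM. Avp and Oxt, the genes of vasopressin and oxytocin, whose cell bodies lie in the hypothalamus, measured 4.43, 4.08 and 4.57 against 1.96, 1.91 and 3.02 CPM and 3.96, 6.21 and 4.89 against 3.76, 3.06 and 2.36 CPM. The tight junction gene Cldn10 completed the 6. Pax7, a factor of melanotropes, overlapped at 17.2 to 25.4 against 14.0 to 19.95 CPM, and Oacyl at 103 to 177 against 84.9 to 106 CPM. Rax and Nkx2-1, factors of the posterior lobe, stood at 0.761 to 2.61 CPM and overlapped. The part of dissection in these levels was not tested.

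Stem and folliculostellate cell genes were split, 6 positive and 10 negative of 16, with 2 higher and 3 lower without overlap (all genes: 10.0% and 9.56%). Sox2, the progenitor factor, measured 34.9, 37.5 and 47.3 against 30.3, 33.8 and 29.2 CPM, and the homeodomain gene Prrx1 31.1, 28.8 and 28.7 against 17.3, 21.5 and 22.2 CPM, both lower. The secreted protein gene Mia was higher at 51.5, 33.9 and 40.8 against 66.0, 57.7 and 53.1 CPM.

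Neutrophil and marrow transcripts separated the libraries more than the genotypes. The 16 genes of that list summed to 68.8 and 117 CPM in wild-type libraries 1 and 2, but to 9.03 CPM in wild-type library 3 and 5.56, 3.72 and 4.22 CPM in the KO-labelled ones. S100a8, a subunit of the antimicrobial protein calprotectin, measured 18.9, 41.8 and 1.96 against 0.463, 0.1004 and 0.553 CPM, and its partner S100a9 17.0, 26.5 and 1.74 against 0.514, 0.653 and 0.402 CPM. The granule protein gene Ngp measured 13.5, 21.2 and 1.47 against 0.514, 0.1004 and 0.101 CPM. None of the 3 overlapped, but wild-type library 3 sat far closer to the KO-labelled libraries than to the other wild-type ones. With all libraries Chil3 alone of the list passed. Without wild-type library 3, the wild-type library with the lowest levels, Camp, Chil3, Ltf, Ngp, Retnlg, S100a8 and S100a9 passed by edgeR. With all libraries 6 of the 16 members passed the filter on low counts. Members such as Camp and Retnlg pass it in the smaller fit through wild-type libraries 1 and 2, where they are high, so neither count of members supports a genotype difference.

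Other blood and brain markers varied by library. The 6 haemoglobin genes listed had 0 reads in all libraries. How reads shared between near-identical copies were counted is not stated, so these values do not show an absence of red-cell RNA. Alas2, the haem synthesis enzyme of erythroid cells, overlapped at 30.8, 9.95 and 19.5 against 22.9, 4.12 and 10.3 CPM. Of 16 macrophage genes 14 were tested, 5 positive and 9 negative, with the complement gene C1qc at 11.2 to 20.6 against 19.6 to 23.0 CPM and the growth factor receptor Csf1r at 19.1 to 24.1 against 19.8 to 20.5 CPM. The 14 B and T cell genes summed to 7.57 to 12.7 against 10.4 to 12.0 CPM. The brain list overlapped in its sum (506 to 564 against 450 to 685 CPM), with the oligodendrocyte genes Mog and Olig2 at 0 to 0.251 CPM. Among fat cell genes Lep had 0 reads throughout and Adipoq was at most 0.0502 CPM.

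**Figure D5:**
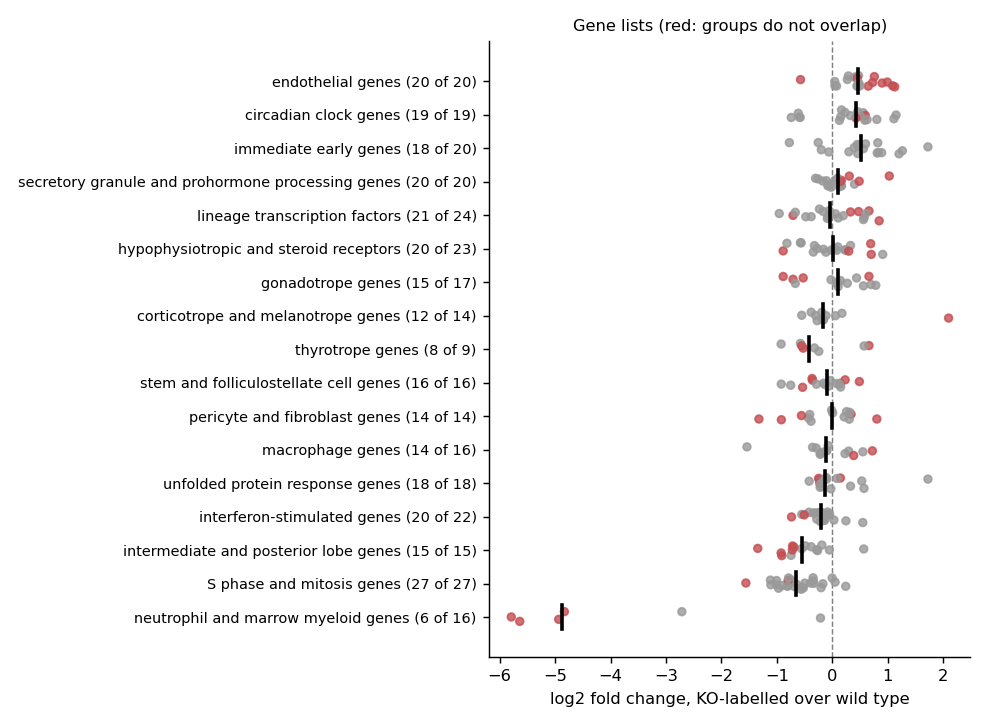
Log2 fold change, KO-labelled over wild type (x axis), of the tested members of 17 gene lists (rows, tested of all members in brackets). Red points are genes whose groups do not overlap and black bars are list medians. Endothelial genes lie mostly to the right of 0 (median 0.46), and intermediate and posterior lobe genes (-0.55) and S phase and mitosis genes (-0.65) to the left. The 6 of 16 neutrophil genes tested (-4.88) passed the filter on low counts through wild-type libraries, where they are high. Their median therefore does not support a genotype difference.

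Genes of proliferation leaned downward without single calls. Of 27 S phase and mitosis genes 25 were negative, 0 passed and 2 were lower without overlap, close to the 9.56% of all genes. The median log2 fold change was -0.65, and was -1.02 without KO-labelled library 1, -0.38 without KO-labelled library 3, -0.39 without wild-type library 1 and -0.63 without wild-type library 2. Ccnb1, the mitotic cyclin, measured 3.09, 3.44 and 2.18 against 1.49, 0.954 and 0.503 CPM (log2 fold change -1.56, SE 0.44, edgeR adjusted p = 0.289). Nusap1, a protein of the mitotic spindle, measured 15.4, 8.78 and 8.27 against 8.03, 5.88 and 4.72 CPM, and Top2a, a topoisomerase of dividing cells, 35.3, 23.6 and 16.9 against 19.2, 10.1 and 8.39 CPM, the latter with overlap. The list summed to 329, 290 and 216 against 258, 203 and 185 CPM. The replication licensing genes Mcm2 and Mcm4 had log2 fold changes of -0.17 and -0.0031. Both this list and the neutrophil list were highest in wild-type libraries 1 and 2, and the part of marrow cells in the proliferation genes was not tested.

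Of 20 secretory granule genes tested 12 were positive, 0 passed, and 5 were higher and 0 lower without overlap, against 10.0% and 9.56% of all genes. The median log2 fold change was 0.099, and -0.016 without wild-type library 2. Besides Vgf, the proSAAS gene Pcsk1n, an inhibitor of a prohormone convertase, was higher at 319, 320 and 316 against 482, 384 and 469 CPM (log2 fold change 0.48, SE 0.13, edgeR adjusted p = 0.289). The granule protein gene Chga and the exocytosis gene Vamp2 differed less, by 0.16 and 0.15 on the log2 scale. The convertase genes Pcsk1 and Pcsk2 overlapped, at -0.17 and -0.30.

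Chaperones and enzymes of the endoplasmic reticulum were mostly negative, 12 of 18 unfolded protein response genes, with 0 past the threshold. The median log2 fold change was -0.13, between -0.22 and -0.062 with 1 library left out. Without overlap 1 gene was higher and 2 were lower (all genes: 10.0% and 9.56%). Hspa5, the main chaperone of that compartment, overlapped at 1402, 1303 and 1061 against 1091, 993 and 1106 CPM. Atf4, a transcription factor of the stress response, was the higher one at 102, 88.8 and 97.4 against 106, 103 and 110 CPM. Canx and Pdia3, which help to fold glycoproteins, were the lower ones, at -0.23 and -0.25 on the log2 scale. Of 14 oestrogen-responsive genes tested 8 were positive, with a median of 0.027.

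Activity-dependent genes varied between libraries within a genotype. The 20 immediate early genes summed to 866, 646 and 1207 against 331, 1777 and 1767 CPM. Nr4a1, an orphan nuclear receptor, measured 250, 104 and 265 against 8.08, 250 and 681 CPM, and its relative Nr4a2 75.2, 66.0 and 252 against 8.75, 378 and 307 CPM. KO-labelled library 1 was the lowest of all 6 for both genes, while KO-labelled library 3 was the highest for Nr4a1 and library 2 for Nr4a2. None of the 18 genes tested had groups apart. Their median log2 fold change was 0.51, and was 1.03 without KO-labelled library 1, 0.87 without wild-type library 3 and 0.059 without KO-labelled library 2.

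Clock genes were mostly positive, 15 of 19, with 0 past the threshold and 2 higher without overlap, a share near the 10.0% of all genes. The median log2 fold change was 0.43, with 0.65 without wild-type library 3 and 0.22 without KO-labelled library 3. Nr1d1, the REV-ERB alpha repressor, measured 71.3, 47.3 and 74.7 against 118, 87.9 and 86.1 CPM, and the repressor gene Bhlhe40 43.7, 43.2 and 53.8 against 58.6, 63.7 and 66.9 CPM. Arntl, the BMAL1 gene, overlapped at 16.03, 22.5 and 9.46 against 5.40, 17.4 and 5.88 CPM. Dbp, an output gene with a strong daily rhythm, overlapped at 37.0, 11.9 and 35.6 against 95.9, 26.3 and 59.96 CPM. In both genotypes library 2 held the lowest Dbp and the highest Arntl. The hour of collection is not stated in the labels used, and its part was not tested.

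Interferon-stimulated genes were negative for 17 of 20 tested (median log2 fold change -0.20), with 0 past the threshold and 2 lower without overlap, a share near the 9.56% of all genes. The median was -0.049 without wild-type library 1, -0.11 without KO-labelled library 1, -0.13 without KO-labelled library 2 and -0.30 without wild-type library 2. These were Ifi44 at 8.68, 6.70 and 8.86 against 4.89, 4.92 and 4.72 CPM and Xaf1 at 4.60, 3.74 and 3.70 against 3.19, 2.56 and 2.71 CPM. Of 20 imprinted genes tested 8 were positive and 12 negative, with 2 higher and 1 lower without overlap (all genes: 10.0% and 9.56%). Dlk1, a paternally expressed gene of a Notch-related membrane protein, was higher without overlap at 1258, 1083 and 1569 against 1952, 1944 and 2043 CPM (log2 fold change 0.60, SE 0.14, edgeR adjusted p = 0.288). Rian, a maternally expressed noncoding RNA of the same domain, was lower at 186, 231 and 175 against 137, 156 and 161 CPM. Its log2 fold change of -0.38 was -0.0053 with GC and length trends removed, where that of Dlk1 was 0.48. A fall of Rian therefore depends on how these trends are handled. Ndn, of another imprinted domain, was higher at 61.6, 55.7 and 61.3 against 83.6, 71.1 and 85.2 CPM.

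A difference from the other tissues was sought in a fit of all 24 libraries, by taking the pituitary effect minus the mean effect in ovary, uterus and hypothalamus. No gene of 16971 passed FDR 0.05 by edgeR (0%), 721 had an unadjusted p under 0.05 (4.25%), limma-voom called 0 and DESeq2 called 7. The labels do not say whether the tissues come from the same females, and the fit treats the libraries as independent. Plvap had log2 fold changes of 1.16 in the pituitary and 0.19, 0.22 and -0.068 in ovary, uterus and hypothalamus (unadjusted p of the difference 8.97e-05, edgeR adjusted p = 0.381). Chil3 differed at an unadjusted p of 6.10e-05 (edgeR adjusted p = 0.345), with 2.25 in the ovary and 2.42 in the uterus. Scn7a had -0.15, 0.32 and -0.38 in the other tissues (unadjusted edgeR p of the difference 0.00343). DESeq2's 7 genes included Plvap, Chil3, S100a8, S100a9 and Ccnb1.

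Rps4l had negative log2 fold changes in all 4 tissues, -3.83 in the pituitary, -2.70 in the ovary, -4.27 in the uterus and -2.32 in the hypothalamus in that fit (adjusted p = 0.00291, 0.0364, 0.000298 and 0.358 by edgeR). Zfp951 was at -4.56, -2.57, -3.29 and -3.43 in the same order, but passed in no tissue (edgeR adjusted p = 0.148, 0.153, 0.150 and 0.358). For Capn8 the other tissues gave 0.66, 0.76 and 2.04, and the difference had an unadjusted edgeR p of 0.168.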

How the data were processed

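RNA of whole frozen glands had integrity numbers of 8 or more, and 0.5 µg went through poly-A selection, a TruSeq kit that does not mark strand and 13 PCR cycles, per the labels' protocols. Overlapping antisense genes therefore cannot be told apart. FastQC, Trimmomatic, STAR, HTSeq and DESeq2 are named in the submitters' processing notes with the mm10 build, without versions or settings.

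Raw read counts were deposited by the authors for each library. A DESeq2 comparison of the pituitaries was deposited too, and per the file headers it gives the mean signal of counts divided by size factors, a log2 fold change with its standard error, a Wald score, and a p-value with its adjusted p-value.

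Of 24222 entries 27 were spreadsheet dates in place of symbols (0.122% to 0.198% of pituitary counts) and were dropped, which left 24195. Positions and GC content came from GENCODE M21 and RefSeq on the same mouse build. Genotypes were compared over 3 against 3 libraries with edgeR 4.0.16 in R 4.3.3 (TMM, filterByExpr, robust quasi-likelihood F test, two-sided, Benjamini-Hochberg over all genes tested, FDR 0.05), with Prl and Gh in the totals. The labels call libraries of a group biological replicates. Pairs within a group differed by more than sampling noise (chi-square per degree of freedom 16.0 to 62.3). Reads carry no molecular identifiers.

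Members, the 27 gene lists and the tests were chosen with earlier results of these data known. The rule for named genes took Kdm4a, the 7 hormone subunit genes, and the 24 smallest p among genes with a mean of at least 1 CPM, without predicted symbols. It also took the members of each list past FDR 0.05 or else those with the smallest p. Other list members were chosen after their values were seen. Lists were described by counts and medians, with no test.

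Alternatives were RLE scaling, other totals for Prl and Gh, no filter, 1 CPM in 3 libraries, DESeq2 1.42.0, limma-voom 3.58.1, the label number as a block, a fit of all 24 libraries, removal of GC and length trends, and leaving out each library. The test was tried on simulated counts.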

Additional observations from a re-analysis of the deposited data

How the results depend on the processing

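In the pituitary, 6 genes passed FDR 0.05 by edgeR. With no filter on low counts 16 passed, DESeq2 called 48, limma-voom 1, and leaving out 1 library at a time gave 1 to 10. RLE scaling, a filter of 1 CPM in 3 libraries and leaving out Prl and Gh each gave 6, and the 24-library fit and the removal of GC and length trends each gave 4. The label number as a replicate block gave 33 genes, 17 higher and 16 lower, with all 6 among them. Deviations of same-numbered libraries correlated at 0.162, 0.0575 and 0.0285, while wild-type library 3 correlated best with KO-labelled library 2 (0.152). With 3 libraries per group these values cannot settle whether the numbers pair the samples. For the difference from the other tissues 0 genes passed by edgeR, DESeq2 called 7, the block gave 0, and leaving out 1 library gave 0 to 1. The share of counts taken by Prl and Gh together kept its direction in every fit, at 5.18 to 10.2 points with 1 library left out.

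Signs of small fold changes turned. Pomc gave -0.062 in plain totals and -0.13 with GC and length trends removed, Lhb -0.077 with those trends removed, and Kdm4b -0.14 and -0.18 in the same 2 settings. Kdm4c gave 0.13 with trends removed and -0.096 to 0.012 with 1 library left out. Kdm4a gave 0.021 in the 24-library fit and -0.18 to 0.094 with 1 library left out, Car2 -0.31 to 0.065, Ebf1 -1.02 to 0.44, and Aqp4 0.0010 with trends removed and -0.35 to 0.030. The cause was not tested. At this depth, genes with few reads in a group, such as Chil3, Bpifa1 and Zfp951, have folds of uncertain size.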
